A study of Mus musculus with 8 samples.

Results

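CD34 positive keratinocytes of K14Snail mice were compared with CD34 positive keratinocytes of wild type mice, 1 array per genotype. All 19938 genes with a single gene symbol on the array were described, each by its probe set with the highest mean. They are the whole of the 19938 such genes in the series, and 2 of its 8 arrays. Each CD34 array held pooled cells of 11 CD1 mice of both sexes, aged 8 weeks. K14Snail mice carry Snail, a transcriptional repressor encoded by Snai1, under the keratin 14 promoter, which is active in basal and follicle keratinocytes. Back skin was trypsinized overnight and cells were taken with an antibody to CD34 on a magnet. The other arrays, used here as context, held the CD34 negative cells of both genotypes and the Mts24 negative and positive cells of pools of 9 mice of the same strain and age. The stage of the hair cycle and the sex ratio of each pool are not given in the sources used here.

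CD34 marks the bulge of the mouse hair follicle, the resting part below the sebaceous gland. It holds slowly cycling stem cells that stay quiet for most of the hair cycle and divide at the start of a new growth phase. Their neighbours are the club hair, the sebaceous gland and the upper follicle, and the interfollicular epidermis differentiates upward into a cornified, lipid-sealed barrier. Snail is known for repressing the epithelial cadherin gene in cells that leave an epithelium.

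Values are log2 levels, in which a difference of 1 is 2-fold. With 1 array on each side, no spread between replicates exists, so differences between the paired arrays carry no error and no p-value, and genes were counted at 2-fold. A level of 7.70, the median of all gene values, served as a mark below which sizes are uncertain because the files give no measure of background. Fewer cells of a type in a pool and less RNA per cell cannot be told apart in such data.

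The transgene was present where the labels put it. Snai1 stood at 8.02 in the wild type and 10.91 in the K14Snail array, a difference of 2.89, against 2.84 to 3.05 in the other 3 fractions. Krt14, whose promoter drives it, was at 13.33 and 13.56. Cd34, the sorting antigen, was at 13.57 in wild type and 13.29 in K14Snail cells, and at 6.12 and 6.27 in the matching CD34 negative arrays. The Mts24 fractions also held Cd34, at 10.03 and 10.51 in negative and 12.12 and 11.56 in positive cells. All 4 sex-linked genes measured were higher on the K14Snail CD34 positive array. Uty was at 7.87 and 8.53, Kdm5d at 7.85 and 8.36, Eif2s3y at 8.82 and 9.28, and Xist at 11.46 and 11.72. Their median difference was 0.48, and 0.90 in the CD34 negative pair. The part of sex ratio in the other differences was not tested.

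Genes that mark the bulge stood at similar levels on both arrays. Of 31 bulge stem cell genes measured, 1 was at least 2-fold higher and 1 at least 2-fold lower, with a median difference of -0.15. Over all 19938 genes 1.87% were at least 2-fold higher, 1.4% were at least 2-fold lower and the median was -0.03. The bulge keratin Krt15 was at 13.67 in wild type and 13.51 in K14Snail cells, the stem cell receptor Lgr5 at 12.38 and 12.23, the transcription factor Lhx2 at 12.79 and 12.44, and Sox9, which specifies follicle stem cells, at 12.78 and 12.68. Median bulge levels were 11.94 and 11.72, against 8.61 to 10.61 in the 6 other arrays. The exceptions past 2-fold were the growth factor Fgf18, which keeps bulge cells at rest, at 12.57 in wild type and 11.17 in K14Snail cells, and the secreted Wnt inhibitor Wif1, at 9.30 and 10.46. Fgf18 was also lower in Mts24 positive cells, by 1.49. Of 15 basal epidermis genes 0 passed 2-fold in either direction and the median was -0.04. Among 13 upper follicle genes the median was 0.36, with the keratin Krt79 higher (11.67 and 13.13) and the lipid droplet gene Cidea lower (8.65 and 6.76).

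Across all genes, 372 were at least 2-fold higher and 279 at least 2-fold lower in K14Snail CD34 positive cells. Among the 10720 genes with at least 2 of 8 arrays at 7.70, the shares were 2.8% higher and 2.15% lower. Among genes whose mean over the 8 arrays reached 7.70, 221 were higher and 209 lower, so the excess of higher genes was smaller there. In the other pairs, 57 genes (0.286% of all) were higher and 53 (0.266%) lower for CD34 negative cells. The Mts24 negative pair had 63 (0.316%) and 31 (0.155%), and the Mts24 positive pair 192 (0.963%) and 69 (0.346%). At 4-fold 43 genes were higher and 64 lower, and at 8-fold 3 were higher and 17 lower, so the largest differences lay mostly on the lower side. The 3 genes past 8-fold upward were Igfl3, Lyz2 and Fmod.

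**Figure D1:**
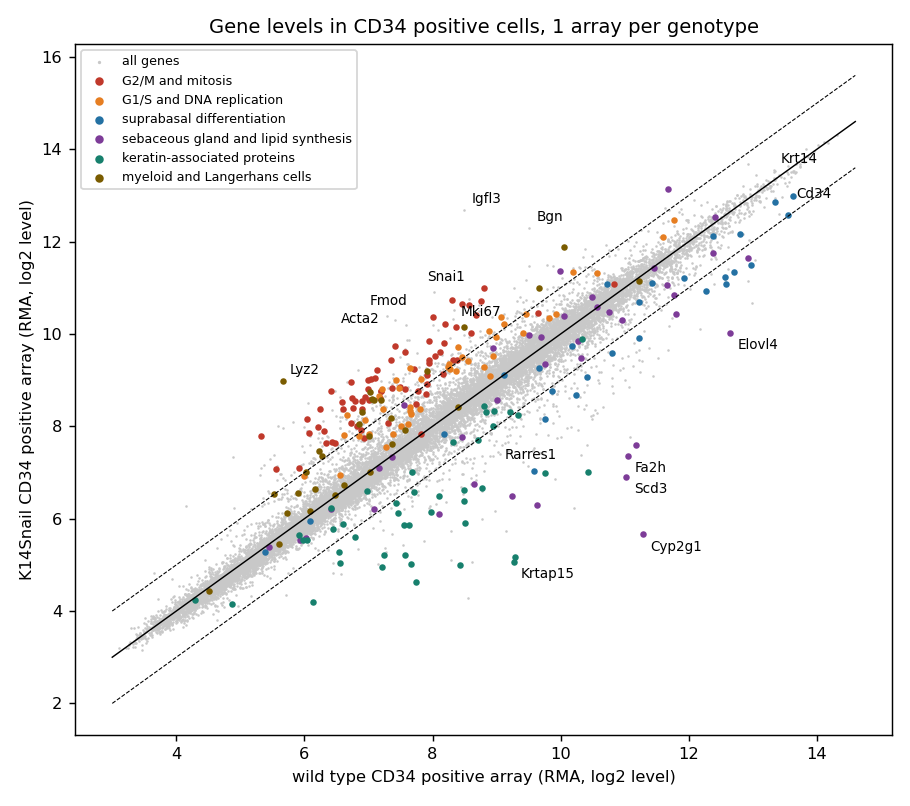
Level of each of 19938 genes in the wild type CD34 positive array (x axis, log2) against the K14Snail CD34 positive array (y axis, log2), with gene groups coloured. The solid line marks equal levels and the dashed lines 2-fold; 60 of the 69 mitotic genes lie on or above the upper dashed line, and keratin-associated and sebaceous genes reach farthest below the lower one.

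Genes of dividing cells made up the clearest group. Over all genes 1.87% were at least 2-fold higher and 44.3% of differences were positive. Of 69 measured genes of G2, mitosis and cytokinesis, 60 were at least 2-fold higher in K14Snail CD34 positive cells, 0 were lower and all 69 differences were positive, with a median of 1.58. The largest differences were in Depdc1a (2.48), a spindle regulator, Mki67 (2.44), which codes for the proliferation antigen Ki-67, Bub1 (2.36), a spindle checkpoint kinase, and Top2a (2.35, or 1.64 with the mean of its probe sets), the topoisomerase that untangles sister chromatids. At the other end Ttk, a checkpoint kinase, differed by 0.02 and the phosphatase gene Cdc25b by 0.25. Depdc1a lay at 5.32 in wild type cells, below the mark of 7.70, so the size of its difference is uncertain, as it is for most of this group: 28 of the 69 reached 7.70 on both arrays.

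Many promoters of these genes hold short words known from cell cycle genes. Expression in G2 and mitosis is known to run through the CHR, read as TTTGAA, and CCAAT boxes, while genes of DNA synthesis often carry E2F sites, read here as TTTGGCGC or TTTCGCGC. Words were searched on both strands in RefSeq windows on GRCm38.p6, from 250 bases before to 50 after each gene's start. The windows of 4 mitotic genes whose levels are given next are shown so that these words can be read in place, with CCAAT and CHR words in capitals, read on either strand (ATTGG is CCAAT and TTCAAA is the CHR on the opposite strand). The last window, of the replicative helicase gene Mcm5, shows overlapping E2F words in capitals, with its other words in lower case. E2F words were marked in that window only, and the Cdk1 window also holds TTTCGCGC, left in lower case.
Ccnb2, chr9:70421505-70421804, minus strand: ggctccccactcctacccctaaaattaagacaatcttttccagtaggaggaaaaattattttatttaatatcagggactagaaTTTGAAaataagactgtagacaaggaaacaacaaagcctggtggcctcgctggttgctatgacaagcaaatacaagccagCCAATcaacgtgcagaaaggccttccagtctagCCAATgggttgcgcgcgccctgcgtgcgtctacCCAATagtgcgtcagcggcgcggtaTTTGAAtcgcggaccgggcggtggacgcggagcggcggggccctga
Cdk1, chr10:69352863-69353162, minus strand: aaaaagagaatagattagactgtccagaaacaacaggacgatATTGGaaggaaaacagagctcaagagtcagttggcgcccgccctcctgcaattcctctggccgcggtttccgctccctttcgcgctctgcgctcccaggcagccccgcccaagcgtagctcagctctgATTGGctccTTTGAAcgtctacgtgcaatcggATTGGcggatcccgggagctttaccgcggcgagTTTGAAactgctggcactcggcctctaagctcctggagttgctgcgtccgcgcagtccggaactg
Top2a, chr11:99024140-99024439, minus strand: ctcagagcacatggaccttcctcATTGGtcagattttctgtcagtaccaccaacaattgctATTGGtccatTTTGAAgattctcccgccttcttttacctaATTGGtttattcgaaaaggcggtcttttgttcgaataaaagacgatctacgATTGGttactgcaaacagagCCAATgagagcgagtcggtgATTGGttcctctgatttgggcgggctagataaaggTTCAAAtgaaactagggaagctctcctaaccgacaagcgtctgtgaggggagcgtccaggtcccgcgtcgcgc
Mki67, chr7:135716330-135716629, minus strand: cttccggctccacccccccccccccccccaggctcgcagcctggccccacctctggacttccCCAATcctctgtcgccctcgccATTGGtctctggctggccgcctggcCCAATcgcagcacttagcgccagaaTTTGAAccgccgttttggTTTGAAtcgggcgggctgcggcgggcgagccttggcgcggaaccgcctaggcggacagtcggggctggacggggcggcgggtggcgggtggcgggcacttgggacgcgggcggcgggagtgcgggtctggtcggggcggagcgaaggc
Mcm5, chr8:75109259-75109558, plus strand: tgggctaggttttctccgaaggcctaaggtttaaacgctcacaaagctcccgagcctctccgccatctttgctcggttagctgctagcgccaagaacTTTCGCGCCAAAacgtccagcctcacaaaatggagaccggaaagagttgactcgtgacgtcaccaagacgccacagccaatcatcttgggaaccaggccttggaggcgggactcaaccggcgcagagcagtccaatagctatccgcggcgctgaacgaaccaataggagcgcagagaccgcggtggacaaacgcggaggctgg

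Among the 69 G2 and mitotic genes, 58 had a window, and 32 of those (55.2%) held both a CCAAT and a CHR word, against 6.12% of the 15614 array genes with a window. A CHR word was in 67.2% of the mitotic windows and in 15.2% of all array genes, and CCAAT was in 70.7% and 38.2%. For the 38 genes of G1/S and DNA replication with a window, E2F words stood in 28.9%, against 1.15% of array genes, the CHR in 18.4% and CCAAT in 60.5%. CCAAT was thus common in both cell cycle groups, and it was also in 57.1% of the 28 sebaceous and lipid windows. Over all 275 windows of genes at least 2-fold higher in K14Snail CD34 positive cells the CHR was present in 30.2%, and over 227 windows of the lower genes in 13.7%. The E-box word CAGGTG, of the kind that Snail binds, was in 28.6% of the lower genes, 12.4% of the higher genes and 19.2% of array genes. The interferon-stimulated response element, read as GAAA repeated after any 2 bases, was in 3.32% of array genes. These words are descriptions of the windows and show no binding. Windows were known for a part of each set only, and the mitotic genes account for a part of the higher genes.

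In the 8 arrays, Mki67 stood at 8.30 in wild type CD34 positive cells and at 10.74 in K14Snail CD34 positive cells. In the CD34 negative arrays it was at 9.84 and 9.92, in the Mts24 negative arrays at 8.63 and 8.99, and in the Mts24 positive arrays at 10.22 and 10.36, in the order wild type and K14Snail. Thus the wild type CD34 positive array was the lowest of the 8 and the K14Snail CD34 positive array the highest. Ccnb2, a mitotic cyclin, followed the same order at the ends, with 8.46 and 10.65 against 8.64 to 10.47 in the other 6 arrays. Cdk1, the mitotic kinase, was at 8.75 and 10.72, with 8.38 to 10.54 in the others. Top2a was at 8.01 and 10.36, with 8.04 to 10.03 in the others.

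Over the 69 genes, the K14Snail CD34 positive array lay above the 6 arrays of the other fractions at 53 and the wild type CD34 positive array lay below them at 37. Over all 19938 genes the K14Snail array alone lay above them at 19.1%, the wild type array alone below them at 15.8%, and both did at 0.943%. The median level of the group was 7.31 in wild type and 8.82 in K14Snail CD34 positive cells. In the other arrays it was 7.34 to 8.25 for wild type and 7.72 to 8.60 for K14Snail. By fraction, the group's median difference was -0.01 for the CD34 negative pair and, for the Mts24 sort, 0.34 among negative and 0.37 among positive cells, where 0 of its members reached 2-fold.

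**Figure D2:**
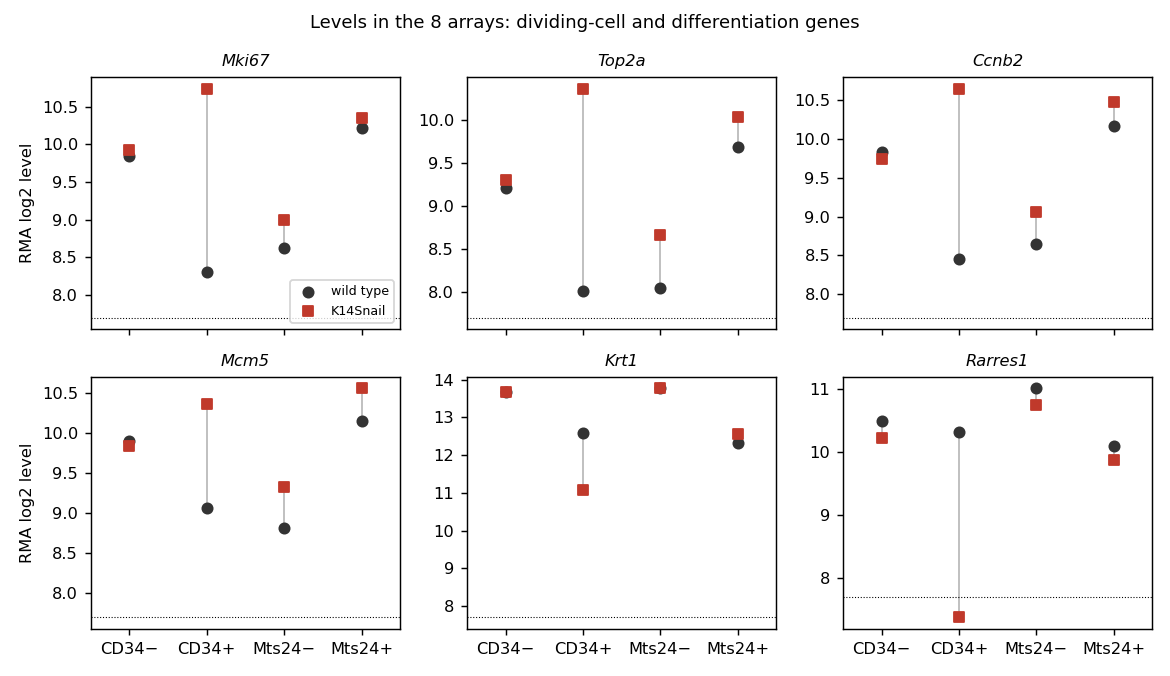
Log2 level (y axis) of 6 genes in the 4 fractions (x axis), 1 array per point, wild type as black circles and K14Snail as red squares; the dotted line is the level of 7.70. In the CD34 positive pair Mki67, Top2a, Ccnb2 and Mcm5 are higher in K14Snail, and Krt1 and Rarres1 lower, by more than in the other 3 pairs.

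Genes of DNA synthesis followed with smaller differences. Of 44 genes of G1/S and DNA replication, 18 were at least 2-fold higher and 0 lower, all 44 differences were positive and the median was 0.94. Uhrf1, which keeps DNA methylation through replication, was at 7.65 in wild type and 9.26 in K14Snail cells, Dtl, of a replication-coupled ubiquitin ligase, at 7.21 and 8.80, and Pole, the leading-strand polymerase, at 7.43 and 9.01. Mcm5 was at 9.06 and 10.37, while the sliding clamp Pcna (11.76 and 12.48) and the G1 cyclin Ccnd1 (11.59 and 12.10) stayed under 2-fold. The group's medians in the other fractions were 0.05 for the CD34 negative pair and, for the Mts24 sort, 0.29 among negative and 0.21 among positive cells. Replication-dependent core histones, a family whose members can share probe signal, had 3 of 22 members at least 2-fold higher and 0 lower (median 0.47), with H2bc3 at 9.27 and 10.99. The histone family was added after its values were seen.

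DNA repair genes had 10 of 32 at least 2-fold higher and 0 lower, with a median of 0.40, or 0.27 among members with at least 2 of 8 arrays at 7.70. The helicase gene Brip1 was at 6.08 in wild type and 7.78 in K14Snail cells, and the checkpoint kinase Chek1 at 7.45 and 8.89. Inhibitors of the cell cycle and quiescence genes had 0 of 19 past 2-fold in either direction (median -0.03). Closest to it were Lrig1, a growth factor receptor antagonist of upper follicle stem cells, at 10.85 and 11.72, and Rbl1, the pocket protein p107, at 8.81 and 9.60. Among 27 p53 target and apoptosis genes 1 was at least 2-fold higher, the receptor gene Eda2r (6.14 and 7.32), and the median was 0.08. Of 24 immediate early genes, which respond to cell handling as well as to growth signals, 0 passed 2-fold and the median was -0.02.

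**Figure D3:**
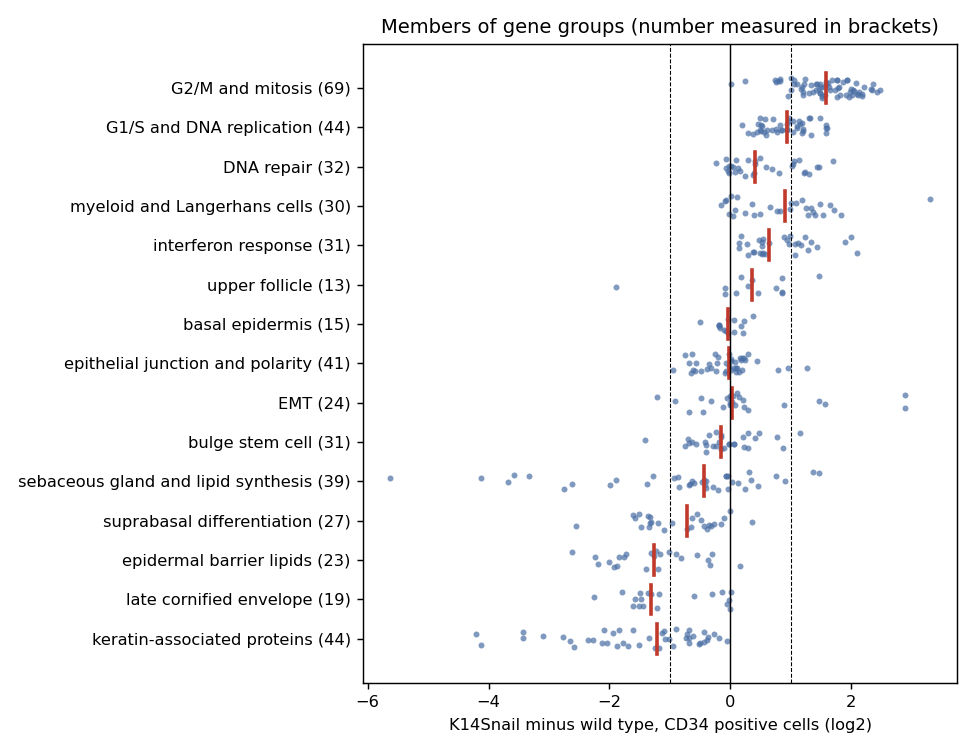
Difference of K14Snail minus wild type in CD34 positive cells (x axis, log2) for each measured member of 15 gene groups, 1 point per gene, with the group's median as a red bar and 2-fold as dashed lines. Mitotic genes spread from 0.02 to 2.48, basal epidermis genes lie within 2-fold, and keratin-associated proteins are all below 0.

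On the lower side, genes of terminal epidermal differentiation stood out. Of 27 suprabasal differentiation genes, 12 were at least 2-fold lower in K14Snail CD34 positive cells, 0 were higher and the median was -0.72. Krt1, the first keratin of suprabasal cells, was at 12.58 in wild type and 11.07 in K14Snail cells, and its partner Krt10 at 13.63 and 12.99. Loricrin (Lor), the main protein of the cornified envelope, was at 12.97 and 11.50, and involucrin (Ivl), an early envelope protein, at 10.40 and 9.07. Casp14, a protease of cornifying cells, was at 9.75 and 8.15, and the serpin gene Serpinb12, the lowest of the group, at 9.58 and 7.03.

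The K14Snail CD34 positive array lay below the 6 arrays of other fractions at 23 of these 27 genes, while the wild type CD34 positive array did so at 7. Over all genes the K14Snail array lay below them at 21.0% with the wild type array not above them, and at 1.13% with it above. The wild type array lay below them at 15.8% with the K14Snail array not above them, and at 0.943% with it above. Krt1, for example, was at 13.67 and 13.68 in the CD34 negative arrays, at 13.77 in both Mts24 negative arrays, and at 12.34 and 12.55 in the Mts24 positive arrays. Suprabasal medians in the other pairs were -0.02 for the CD34 negative pair and, for the Mts24 sort, 0.05 among negative and -0.23 among positive cells. Suprabasal cells are not CD34 positive bulge cells, and what share of each pool they made was not measured.

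Late cornified envelope genes, a clustered family of close paralogues that can share probe signal, had 12 of 19 members at least 2-fold lower and 0 higher, with a median of -1.30. The family was added after its values were seen, so its counts are a description only. The members past 2-fold were Lce6a and 11 genes of the Lce1 set, and the 5 measured Lce3 genes differed by -0.13 to 0.01. Lce6a was at 10.67 in wild type and 8.42 in K14Snail cells. In Mts24 negative cells the family's median was 0.54, the opposite direction.

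Lipid genes of the epidermal barrier had 16 of 23 members at least 2-fold lower and 0 higher, with a median of -1.26. The group was formed after its values were seen, so its counts are a description only. Its genes build and process the ceramides that seal the cornified layer. Elovl4, which makes their very long fatty acids, was at 12.64 in wild type and 10.02 in K14Snail cells, with 11.76 to 13.46 in the other 6 arrays. Sdr9c7, a dehydrogenase of the linoleate pathway, was at 10.01 and 7.78, the ceramidase Acer1 at 10.54 and 8.36, and the epoxide hydrolase Ephx3 at 11.00 and 9.00. The lipoxygenase Alox12b was at 10.28 and 8.44 and the lipid transporter Abca12 at 10.79 and 9.53. At all 23 genes the K14Snail CD34 positive array was below the 6 arrays of the other fractions, and at 11 the wild type CD34 positive array was below them too. The shares over all genes are those given above with the suprabasal genes. By fraction the medians were -0.00 for the CD34 negative pair and, for the Mts24 sort, -0.04 among negative and -0.21 among positive cells.

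**Figure D4:**
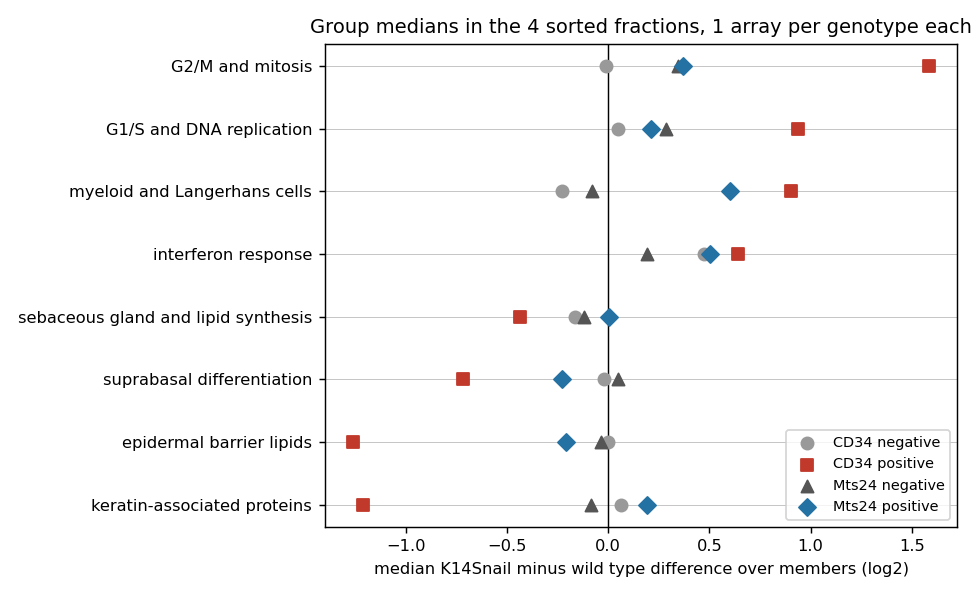
Median difference of K14Snail minus wild type over the members of 8 gene groups (x axis, log2) in each of the 4 fractions, 1 pair of arrays per symbol. For CD34 positive cells (red squares) the medians run from -1.26 for barrier lipid genes to 1.58 for mitotic genes. In each of these 8 groups they lie farthest from 0 of the 4 fractions. The barrier lipid and keratin-associated groups were formed after their values were seen. Some groups not plotted lie farther from 0 in another fraction, such as bulge stem cell genes (-0.15, against -0.30 in Mts24 positive cells).

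Keratin-associated proteins, the matrix between keratin filaments of the hair shaft, were lower without exception in direction. All 44 measured genes had negative differences, 27 of them at least 2-fold, and the median was -1.21. This family was added after its values were seen, so its counts are a description only. Here the wild type array stood apart: it was above the 6 arrays of other fractions at 36 of the 44 genes, and the K14Snail CD34 positive array was below them at 10. Over all genes the wild type array alone lay above them at 19.1%, the K14Snail array alone below them at 21.0%, and both did at 1.13%. The K14Snail count was thus near the share of all genes. Krtap7-1 was at 10.42 in wild type CD34 positive cells, with a difference of -3.42 in K14Snail, against 6.17 and 6.49 in CD34 negative, 6.75 and 6.73 in Mts24 negative, and 7.70 and 8.73 in Mts24 positive cells. Krtap15 was at 9.27 and 5.07, and Krtap4-16 at 9.28 and 5.16, with K14Snail values near the lower end of the scale. In Mts24 positive cells 6 of the genes were at least 2-fold higher in K14Snail, Krtap15 among them by 1.77. These paralogues can share probe signal, and 8 of the 44 reached 7.70 on both arrays.

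Other genes of the growing hair differed less. Among 33 hair matrix, shaft and inner root sheath genes 3 were at least 2-fold higher, 0 were lower and the median was -0.14, or -0.32 without dim genes (2 of 8 arrays at 7.70). Those 3 were inner root sheath keratins, Krt25 (7.17 in wild type and 8.47 in K14Snail), Krt73 (7.24 and 8.43) and Krt71 (7.65 and 8.79). The hair shaft keratins Krt31 (6.64 and 6.45) and Krt33b (8.88 and 8.47) differed by less than 2-fold. Melanocyte markers, which report pigment cells of the follicle, had 3 of 12 at least 2-fold higher (Tyrp1, Dct and Pmel, by 1.62, 1.58 and 1.02) and a median of 0.17, or 0.66 by that filter.

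Sebaceous gland and lipid synthesis genes held the largest single difference. Cyp2g1, a cytochrome P450, was at 11.29 in wild type and 5.66 in K14Snail CD34 positive cells. In the CD34 negative arrays it was at 11.13 and 6.06, in the Mts24 negative arrays at 9.95 and 5.87, and in the Mts24 positive arrays at 6.73 and 6.41. It was thus low on every K14Snail array and also on the wild type Mts24 positive array. The desaturase Scd3 was at 11.03 and 6.90, the fatty acid hydroxylase Fa2h at 11.05 and 7.37, and the fatty acyl reductase Far2, which makes wax alcohols, at 11.17 and 7.60.

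Of the 39 genes 11 were at least 2-fold lower and 2 higher, with a median of -0.44, while 8 members were 2-fold lower in the CD34 negative pair, 5 in the Mts24 negative and 0 in the Mts24 positive pair. Not all lipid genes took part. Fatty acid synthase (Fasn) was at 10.76 in wild type and 10.48 in K14Snail cells, the lipogenic regulator Srebf1 at 9.69 and 9.93, and Pparg, a regulator of sebocytes, at 7.37 and 7.33. The desaturase Scd2 went the other way, reaching 11.36 in K14Snail cells with a difference of 1.36, as did Krt79, a keratin of the sebaceous duct and upper follicle. Dehydrogenases of retinol were also low: Adh1 was at 10.41 and 7.59 and Adh6b at 8.97 and 6.16, a difference of -2.81 that was -1.50 with the mean of its probe sets. In the retinoid and steroid group as a whole 8 of 25 were at least 2-fold lower and 4 higher (Cyp7b1, Aldh1a3, Stra6 and Aldh3a1), with a median of -0.08, or -0.61 among members with at least 2 of 8 arrays at 7.70.

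**Figure D5:**
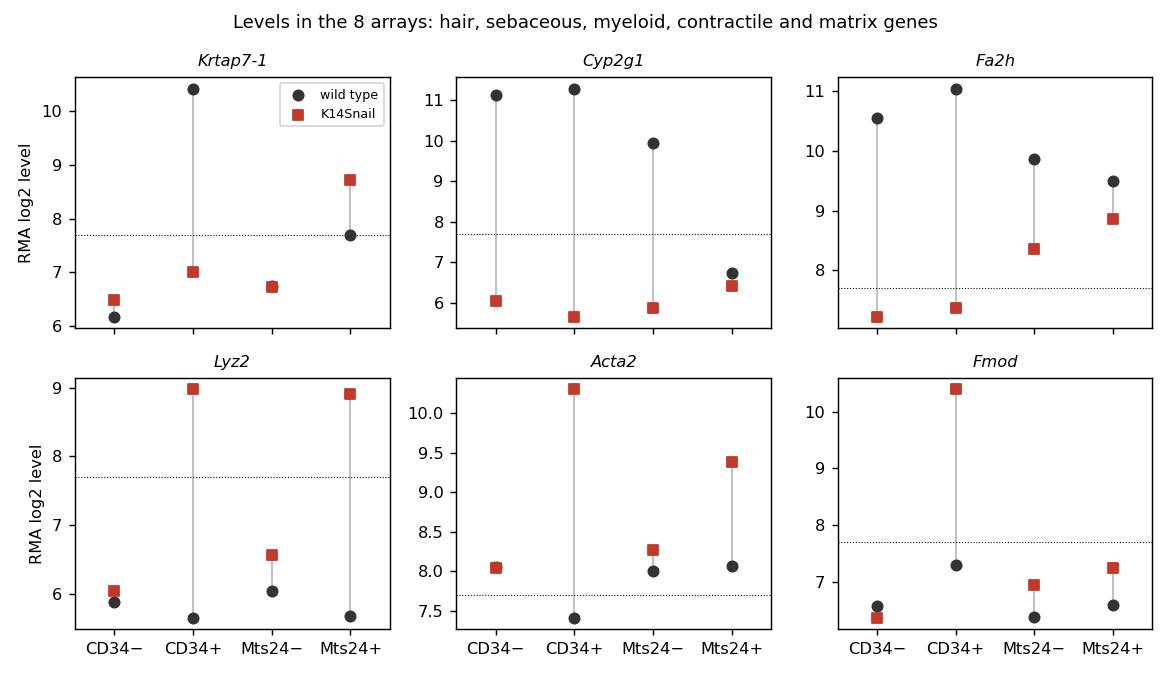
Log2 level (y axis) of 6 genes in the 4 fractions (x axis), 1 array per point, wild type as black circles and K14Snail as red squares; the dotted line is the level of 7.70. Krtap7-1 is high on the wild type CD34 positive array, Cyp2g1 and Fa2h are lower in K14Snail in the CD34 sort and in Mts24 negative cells, Lyz2 is high on both K14Snail positive fractions, and Fmod is high on the K14Snail CD34 positive array.

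Markers of myeloid and Langerhans cells were higher in K14Snail CD34 positive cells. Of 30 markers 14 were at least 2-fold higher and 0 lower, with a median of 0.90. Lyz2, the lysozyme of macrophages, was at 5.66 in wild type and 8.97 in K14Snail cells, and in Mts24 positive cells at 5.68 and 8.91. The class II antigen presentation genes Cd74 (10.05 and 11.88) and H2-Ab1 (8.49 and 10.14) and the macrophage receptor Csf1r (7.09 and 8.58) were higher too. The complement gene C1qa (7.03 and 7.02) and Cd68 (8.40 and 8.42) were at nearly equal levels. Summed over the 30 markers, the log2 level was 12.89 in wild type and 13.88 in K14Snail CD34 positive cells, and 14.35 and 13.86 in CD34 negative cells. The wild type arrays of the positive fractions (12.89 and 12.97) were thus the lowest, and the K14Snail positive fractions reached 13.88 and 14.04. The part of these cells in the other differences was not tested.

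Other cell types differed less. T cell markers had 0 of 16 past 2-fold and a median of 0.04, with summed levels of 11.29 in wild type and 11.49 in K14Snail CD34 positive cells, against 13.47 and 13.09 in CD34 negative cells. Neutrophil, mast cell, endothelial, skeletal muscle, adipocyte, erythroid and Schwann cell markers also had 0 members past 2-fold. Most of these markers were dim, so their counts say little. For neutrophils, mast cells and the 2 erythroid genes measured, 0 members reached 7.70 on either array. It was reached on at least 1 array by 1 of 14 endothelial, 1 of 9 adipocyte, 2 of 10 skeletal muscle and 3 of 6 Schwann cell markers. Of 16 fibroblast markers 2 were at least 2-fold higher, Sfrp2 (6.55 and 8.63) and Dcn (6.37 and 7.64), while Col1a1 was at 8.16 and 8.78 and the median was 0.02.

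Interferon response genes were higher as a set of values. Of 31 genes 11 were at least 2-fold higher and 0 lower, all 31 differences were positive and the median was 0.64. Oasl2, an antiviral gene, was at 7.57 in wild type and 9.67 in K14Snail cells, Cxcl9, an interferon-induced chemokine, at 8.73 and 10.62, and Psmb8, an immunoproteasome subunit, at 9.36 and 10.80. Its medians were above 0 in every pair, with values of 0.47 for the CD34 negative pair and, for the Mts24 sort, 0.19 among negative and 0.50 among positive cells. Of the 22 genes with a promoter window, 11 held the interferon-stimulated response element, against 3.32% of array genes, and of the 7 such genes at least 2-fold higher 2 held it. Of 26 cytokine and chemokine genes 2 were at least 2-fold higher, the monocyte chemokine Ccl2 (7.61 and 9.87) and the macrophage growth factor Csf1 (7.73 and 8.74).

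Genes of mesenchymal transition (EMT), which Snail is known to drive in other epithelia, had a median near that of all genes but larger shares past 2-fold. Of 24 genes 4 were at least 2-fold higher, Snai1 included, 1 was lower and the median was 0.04. These shares were 16.7% higher and 4.17% lower, against 1.87% and 1.4% of all genes. Only 13 of the 24 reached 7.70 on both arrays. Acta2, the smooth muscle actin of contractile cells, was at 7.42 in wild type and 10.31 in K14Snail cells, vimentin (Vim), an intermediate filament of mesenchymal and immune cells, at 10.38 and 11.84, and the protease Mmp9 at 7.40 and 8.96. Fibronectin (Fn1) was at 10.38 and 9.17. Cdh2 (4.91 and 5.12), Zeb1 (6.85 and 7.07), Zeb2 (6.16 and 6.27) and Twist1 (6.86 and 6.74), regulators or markers of the program, were under 7.70 on both arrays. The smooth muscle gene Tagln, often expressed with Acta2, was at 6.77 and 6.81, and 1 of 20 contractile genes, Acta2, passed 2-fold.

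Epithelial junction and polarity genes stayed in place at this fold. Of 41 genes 1 was at least 2-fold higher, the gap junction gene Gjb6 (6.90 in wild type and 8.17 in K14Snail), 0 were lower and the median was -0.02. Extracellular matrix genes had 7 of 41 at least 2-fold higher and 1 lower (median 0.03). These shares were 17.1% and 2.44%, against 1.87% and 1.4% of all genes. Fibromodulin (Fmod), a collagen-binding proteoglycan, was at 7.30 and 10.39, against 6.37 to 7.25 in the other 6 arrays, so the K14Snail CD34 positive array alone was high. Biglycan (Bgn), a related proteoglycan, was at 9.51 and 12.30, with differences of 1.77 to 2.82 in the other pairs.

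Few signalling genes passed 2-fold. In the BMP and TGF-beta group 6.25% were higher and 6.25% lower, and in the Wnt group 5.88% and 2.94%. Over all genes these shares were 1.87% and 1.4%, and the counts in these groups were of 1 or 2 genes. The BMP and TGF-beta group had 2 of 32 higher, the activin subunit Inhba (6.23 in wild type and 7.84 in K14Snail) and the bulge-cell ligand Tgfb3 (9.44 and 10.53), and 2 lower, Bmp4 (8.54 and 7.22) and Bmp2 (10.52 and 9.48), with a median of -0.03. BMP signals hold bulge cells at rest, and Bmp6 (10.19 and 9.57) stayed under 2-fold. In the Wnt group 2 of 34 were higher, the secreted inhibitors Sfrp2 and Wif1, and 1 lower, the ligand Wnt3 (8.99 and 7.67). Hedgehog (12 genes) and Notch (18 genes) groups had 0 members past 2-fold, with medians of 0.02 and -0.01. Among 18 wound-associated epidermal genes 3 were higher, Lcn2 (6.06 and 8.51), Krt16 (7.80 and 9.29) and Sprr1b (7.54 and 8.98), and 1 lower, Sprr2d (8.16 and 6.99), with a median of -0.01, or 0.54 among members with at least 2 of 8 arrays at 7.70.

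Singly, the highest gene was Igfl3, a small secreted IGF-like factor, at 8.50 in wild type and 12.69 in K14Snail CD34 positive cells, with differences of 1.41 to 4.02 in the other pairs. Also among the 15 highest were Dpysl2, a cytoskeletal adaptor (7.59 and 10.19), Rgs1, a G protein regulator (5.59 and 8.01), and Knl1, a kinetochore scaffold (6.84 and 9.22). Among the 15 lowest, besides the sebaceous and keratin-associated genes, were the serpin Serpina3b (10.20 and 6.24), the interferon-inducible membrane protein gene Ifitm6 (11.08 and 7.77) and Aadacl2fm1 (9.14 and 5.73), of an arylacetamide deacetylase-like family. Gm11559, Gm10061 and Gm11567 were also there, with levels of 4.28 to 5.11 in K14Snail cells. Like the keratin-associated gene Krtap15, they were highest of the 8 arrays on the wild type CD34 positive array, at 8.28 to 8.62.

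In both directions the K14Snail array alone departed from the other fractions at more genes than the wild type array alone. Of the 372 higher genes, the K14Snail array alone lay above the 6 arrays of other fractions at 138 (37.1%), the wild type array alone lay below them at 89 (23.9%), both did at 65 and neither at 80. For the 279 lower genes the K14Snail array alone lay below the others at 170 (60.9%) and the wild type array alone above them at 88 (31.5%), with both at 15 and neither at 6. Over all 19938 genes the same shares in the higher sense were 19.1% for the K14Snail array alone and 15.8% for the wild type array alone, and in the lower sense 21.0% and 19.1%.

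Sharing with the other fractions was partial. Of the 372 higher genes 78 were also 2-fold higher in Mts24 positive cells, 21.0% of them and 40.6% of that fraction's 192. In CD34 negative cells it was 26 (6.99% and 45.6% of 57), and in Mts24 negative cells 17 (4.57% and 27.0% of 63). Of the 279 lower genes 44 were shared with Mts24 positive (15.8% and 63.8% of 69), 28 with CD34 negative (10.04% and 52.8% of 53) and 13 with Mts24 negative cells (4.66% and 41.9% of 31). In the opposite direction, 13 of the 279 were at least 2-fold higher in Mts24 positive and 3 in Mts24 negative cells, and 0 of the 372 were 2-fold lower in any other pair. Genes past 2-fold in all 4 fractions numbered 10 higher and 5 lower. The higher ones were Aff2, Atp12a, Bgn, Casp12, Cxcl9, Ehf, Igfl3, Klk6, Snai1 and Sprr1b, and the lower ones Adh6b, Cst9, Efcab1, Enpp5 and Serpina3b. In turn 115 of the 372 and 88 of the 279 differed by less than 0.5 in each of the other 3 pairs (30.9% and 31.5%), against 88.9% of all genes. The pools of the CD34 negative and positive fractions may hold the same mice, which the labels do not say.

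Whether a gene's difference in CD34 positive cells exceeded that in the other 3 fractions was tested with limma, which takes the disagreement among those 3 pairs as the error. That error is a spread between cell fractions, not between replicates of CD34 positive cells. The test therefore cannot say whether the CD34 positive difference would recur in other pools. With 2 residual degrees of freedom, 1 of 10720 genes passed an adjusted p of 0.05, which is 0.00933% of those tested on the lower side and 0.0% on the higher. That gene was Rarres1, a retinoic acid-responsive membrane protein gene, which fell by 2.68 ± 0.14 more in CD34 positive cells (limma adjusted p = 0.0400). It was at 10.31 in wild type and 7.38 in K14Snail CD34 positive cells, and between 9.88 and 11.01 on the other 6 arrays, so the K14Snail array alone was low. At an unadjusted p under 0.05 there were 1108 genes, 552 higher and 556 lower. The call of Rarres1 ended without the CD34 negative pair (limma adjusted p = 0.110) and without the Mts24 negative pair (limma adjusted p = 0.0920), and without the Mts24 positive pair 728 genes passed.

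Next in order, short of the threshold, came genes of the groups above. Mki67 differed by 2.24 ± 0.17 more in CD34 positive cells and Prc1, a protein of the spindle midzone, by 1.86 ± 0.15 (limma adjusted p = 0.0549 for both). Elovl4 stood at -2.40 ± 0.19 and Ephx3 at -1.93 ± 0.16 with that same adjusted p from limma. At a looser adjusted p of 0.1, 67 of the 10720 genes tested passed, 26 higher and 41 lower. They included 11 of 60 tested G2 and mitotic genes, 4 of 25 suprabasal genes and 8 of 22 barrier lipid genes. The barrier lipid group was formed after its values were seen, so its count is a description only. Adh6b (-1.60 ± 0.14), Krtap7-1 (-3.86 ± 0.40) and Krt1 (-1.58 ± 0.16) were among these 41. Of the myeloid markers tested 0 passed that looser mark, and 13 of the 30 were also 2-fold higher in Mts24 positive cells, where Cd74 was at 10.21 and 12.15.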

How the data were processed

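RNA of 8 pools, 1 per genotype and sorted fraction, was hybridized to Affymetrix whole-transcript arrays. Deposited values are on a log2 scale, 1 for each probe set and array. The authors obtained them by RMA, as the submitters' processing notes name it, which subtracts background, equalizes the arrays' distributions and combines the probes of a set. Its version and the genome build are not given in the sources used here. Of 28874 probe sets 21789 have 1 symbol, 1621 several and 5464 none, and those with several or none were left out; 21698 matched RefSeq by Entrez identifier. For 999 genes with several probe sets the one with the highest mean was used. Values ran from 3.04 to 14.49, array medians from 7.32 to 7.42, and 0 pairs of arrays were identical. The number of arrays, 1 per group, limits the precision.

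Differences were taken as K14Snail minus wild type. The limma model (3.58.1, R 4.3.3) held fraction, genotype and genotype in CD34 positive cells, with 2 residual and 3.32 prior degrees of freedom, for 10720 genes with at least 2 of 8 arrays at 7.70; calls were made at 0.05 after Benjamini-Hochberg adjustment, and errors are moderated standard errors. They measure the spread between these arrays. The model was tested on simulated data. Tables and plots used Python 3.11.15, pandas 2.3.3, numpy 2.4.6, statsmodels 0.14.6 and matplotlib 3.10.9.

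The comparison, the 38 gene lists and the tests were chosen with earlier results of these data known. Keratin-associated proteins, core histones, late cornified envelope and barrier lipid genes were added as families after their values were seen. Named genes are Snai1, Krt14, Cd34 and Plet1, the 15 highest and 15 lowest, the genes past or nearest the limma threshold, and the 4 largest members of each list, all with an array at 7.70 (157 genes in all), and 2-fold members against a list's direction; other names were chosen after their values were seen. Plet1, whose product carries the Mts24 antigen, was at 11.82 in wild type and 11.74 in K14Snail cells. Promoter windows are RefSeq's, on GRCm38.p6, the first listed per gene.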

Additional observations from a re-analysis of the deposited data

Results flagged for a closer look

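Rarres1 stood apart because limma's test of the CD34 positive difference against the other 3 fractions passed, at -2.68. For Sprr2d, of a family of close paralogues that can share probe signal, the CD34 positive difference of -1.17 had the opposite sign to the other 3 pairs, which were at 0.69 for CD34 negative cells and, for the Mts24 sort, 0.94 among negative and 1.55 among positive cells. Fn1, the fibronectin gene, did the same at -1.21, against 0.42, 1.52 and 0.48 in that order. Their differences from the other fractions did not pass in limma (adjusted p = 0.106 for Sprr2d and 0.185 for Fn1).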

How the results depend on the processing

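With 1 array per side nothing in the paired counts can be tested, and signal over background is not known. The 372 higher and 279 lower genes became 221 and 209 among genes whose mean over the 8 arrays reached 7.70; at 1.5-fold there were 828 higher and 718 lower, and at 1.5 on the log2 scale 128 and 138. Quantile normalization, a loess within the pair (which moved values by -0.07 to 0.03) and centring on the median moved 0 of 157 named genes and 0 of 42 list medians past the margin used; the mean of probe sets moved Top2a (1.64) and Adh6b (-1.50). Leaving out dim genes moved 11 list medians, such as wound-associated genes to 0.54, retinoid and steroid genes to -0.61 and DNA repair genes to 0.27. The limma count of 1 gene became 55 without a filter, 12 with the mean filter and 48 with a trended, robust prior, stayed at 1 with quantile normalization and the mean of probe sets, and was 0 to 728 with 1 of the other pairs left out; the cause was not tested. The pool as a random block could not be fitted and was not run. The labels carry no replicate numbers to block on. The limma model held fraction, which pairs the genotypes within each fraction.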
